A study of Rattus norvegicus with 43 samples.

Results

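Endothelin-1 and its receptors were followed as 4 genes in rat kidney cortex: Edn1, which encodes the preproform of the peptide endothelin-1, Ece1, which encodes the membrane protease that cuts big endothelin-1 into the active peptide, and Ednra and Ednrb, which encode the receptors ETA and ETB. They were taken by gene name from the deposited expression tables, where each name had 1 row in each table, so 4 genes were described of the 32545 listed for normal salt and the 34899 listed for high salt. The study asked how genotype, dietary salt and time of day alter the renal transcriptome in salt-sensitive hypertension. Dahl salt-sensitive (SS) rats become hypertensive on a high salt diet, and the other genotype, SSper1-/-, carries a disrupted Per1 gene, which encodes a repressor of the circadian clock, on that background. All rats were male, all libraries came from kidney cortex, and the diets were given for 3 weeks.

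High salt (HS) was 4% NaCl and normal salt (NS) was 0.4% NaCl. Kidneys were collected at 2am, in the active phase, or at 2pm, in the inactive phase. The rats labelled Per1KO gave 5 libraries on high salt at 2am, 5 on high salt at 2pm, 5 on normal salt at 2am and 6 on normal salt at 2pm. The SS rats gave 5 libraries on high salt at 2am, 5 on high salt at 2pm, 6 on normal salt at 2am and 6 on normal salt at 2pm. The labels name the genotype only, with no account of the Per1 allele, and they do not say whether each library is 1 animal, so p-values measure the spread between libraries. Per1 mRNA did not check the labels: its log2 difference, Per1KO minus SS, was 0.35 ± 0.24 on high salt at 2am and 0.26 ± 0.24 at 2pm, and -0.16 ± 0.23 on normal salt at 2am and -0.16 ± 0.22 at 2pm, and the lowest adjusted p by limma was 0.392. The genotype is therefore called the label Per1KO throughout.

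Endothelin-1 acts on neighbouring cells. In the kidney, ETA on smooth muscle and mesangial cells contracts vessels and glomeruli, whereas ETB on endothelium releases nitric oxide and removes the peptide, and ETB on the collecting duct lowers sodium reabsorption. Endothelial cells and collecting duct cells are the main renal sources of the peptide, and injured tubules also make it. In mouse collecting duct cells, Edn1 has been described as a gene regulated by Per1.

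The Edn1 promoter is shown because Edn1 had the largest label difference of the 4 genes and because it is the only one of them whose window held any motif searched. The windows, the 250 bases before the RefSeq transcription start on build GRCr8, were searched on both strands for an element of GATA factors (spelled TTATCT), the core of a hypoxia response element (spelled ACGTG), the box of the basal promoter (spelled TATAAAA), the E-box on which clock factors sit (spelled CACGTG) and the site of AP-1 (spelled TGACTCA). The stretch printed is chr17:22666788-22666937 on the minus strand, bases 250 to 101 before the start, read 5′ to 3′, with the matches in capitals.
Edn1: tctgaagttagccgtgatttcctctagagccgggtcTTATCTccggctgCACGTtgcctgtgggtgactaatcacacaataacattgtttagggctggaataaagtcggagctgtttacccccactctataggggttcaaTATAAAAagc
TTATCT began 214 bases before the start and occurs in 10.3% of the 33469 promoter windows of the same length. CACGT, the reverse complement of ACGTG, began 201 bases before it (16.6% of windows hold this core), and TATAAAA began 110 bases before it (5.38% of windows). None of the 4 windows held CACGTG, found in 5.59% of all windows, or TGACTCA, found in 4.05%, and CACGTG would also have counted as a match to ACGTG. A match describes letters only. Just these exact spellings were searched, so a variant of a site, of AP-1 or of another factor, would not have been counted.

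The deposited values are FPKM, which divide a gene's fragments by its length and by the size of the library, so levels can be set side by side between genes. Depth was 15338237 to 27641227 fragments per library on high salt and 23970595 to 41637801 on normal salt. Ece1 and Ednrb were the more abundant members and Edn1 and Ednra the scarcer ones. On high salt and normal salt the Ece1 level had medians of 16.7 and 15.7 FPKM over all libraries, Ednrb 13.5 and 14.4, Edn1 3.85 and 2.64, and Ednra 2.14 and 1.84. Edn1 rested on the fewest fragments, 32 to 266 per library on high salt and 51 to 177 on normal salt, and Ece1 on the most, 1135 to 2923 and 1274 to 3042. In the coordinates of the authors' tables, for which the sources used here name no build, Edn1 (ENSRNOG00000014361) lies at chr17:22137324-22143324 on the minus strand, Ece1 (ENSRNOG00000014241) at chr5:156215417-156318671 on the plus strand, Ednra (ENSRNOG00000012721) at chr19:33928356-33991703 on the plus strand and Ednrb (ENSRNOG00000010997) at chr15:88006977-88036354 on the minus strand. All 4 passed the filter on low values, at least 1 FPKM in at least 5 libraries, in both tables.

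The cortex label was checked with 4 inner medulla markers. Slc14a2, the urea transporter of the inner medulla, had a median under 0.1 FPKM in both tables, but 12.3 FPKM in SS library 4 on high salt at 2pm, against at most 0.32 FPKM in any other library. The other 3 do not separate the zones: Aqp1, the water channel that proximal tubules also express, averaged 335 to 668 FPKM over the groups, Akr1b1 14.5 to 25.8 FPKM and S100a4 5.45 to 15.3 FPKM. Libraries 4 and 5 of SS on high salt at 2pm stood apart: their summed FPKM of 11 tubular injury markers was 6316 and 4729, against 1154 to 1982 in the other 3, and their summed FPKM of 5 podocyte markers was 15.8 and 42.0, against 85.8 to 148. Results at 2pm on high salt are therefore also given without both. The library names in the labels run in blocks of numbers, with no dates given. At 2pm on high salt the lower and the higher block are here called the early and the later series. Both series hold both genotypes (3 early and 2 later Per1KO libraries, 2 early and 3 later SS libraries). In every other comparison of label or time, name block and group cannot be told apart. The SS libraries on normal salt at 2pm also have another name prefix than all the rest, which enters the label by diet test at 2pm.

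**Figure D1:**
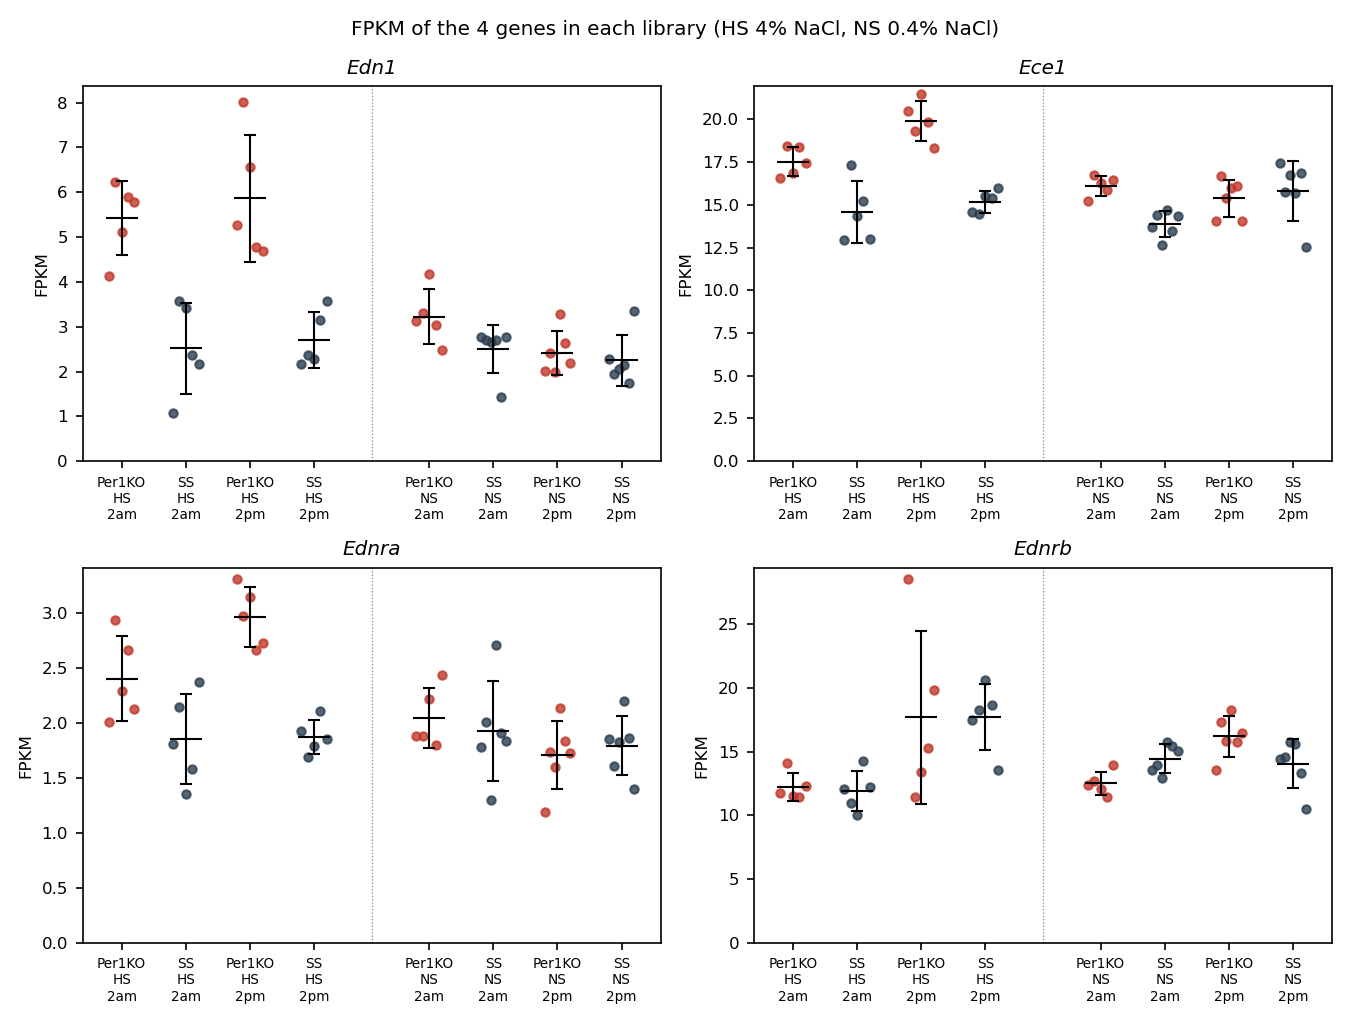
FPKM of Edn1, Ece1, Ednra and Ednrb in each of the 43 libraries, with 1 point per library, horizontal bars at the group mean and error bars of 1 SD. Red points are Per1KO and dark points SS, with the high salt groups left of the dotted line and the normal salt groups right of it. On high salt the Edn1 points of Per1KO lie above all SS points at each time, and the Ednrb points of the genotypes overlap.

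On high salt, the ligand mRNA was 2.15 times as high in kidneys labelled Per1KO as in SS at 2am and 2.17 times as high at 2pm, as ratios of mean FPKM. Ece1 mRNA was also higher at both times, by a smaller factor, and Ednra mRNA was higher at 2pm. Ednrb mRNA did not pass the test at either time. At 2am 2 of the 4 genes passed as higher, where 4.30% of the 14899 genes tested did, and at 2pm 3 of the 4 passed as higher, where 14.2% did. A gene passed when its adjusted p was below 0.05 by limma on log2(FPKM + 1), with Benjamini-Hochberg adjustment over all genes tested.

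Edn1 at 2am had 4.13, 6.23, 5.12, 5.90 and 5.78 FPKM in the Per1KO libraries on high salt, against 1.08, 3.56, 3.42, 2.38 and 2.16 FPKM in the SS libraries. The lowest Per1KO library was above the highest SS library, a separation in that direction that 4.20% of tested genes showed. The means were 5.43 ± 0.83 FPKM in Per1KO and 2.52 ± 1.02 FPKM in SS (SD, n = 5 each), and the log2 difference was 0.91 ± 0.19 (SE, limma, adjusted p = 0.00787), larger than that of 98.7% of genes. Edn1 at 2pm had 5.27, 8.02, 6.56, 4.78 and 4.68 FPKM in the Per1KO libraries, against 2.17, 2.36, 2.28, 3.16 and 3.57 FPKM in the SS libraries. Again the groups did not overlap, which 6.36% of genes showed in that direction. The means were 5.86 ± 1.42 FPKM in Per1KO and 2.71 ± 0.62 FPKM in SS, with a log2 difference of 0.88 ± 0.19 (adjusted p = 0.00214), larger than that of 98.1% of genes. The fitted values understate the ratio of so low a gene, since 1 FPKM was added before taking logs, and with 0.1 FPKM added the differences were 1.17 and 1.08.

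Ece1, which acts on the product of Edn1, had 16.6, 18.4, 16.8, 18.4 and 17.4 FPKM in the Per1KO libraries at 2am on high salt, against 13.0, 17.3, 14.3, 15.2 and 13.0 FPKM in the SS libraries. The groups overlapped, because SS library 2 was above 2 of the Per1KO libraries. The log2 difference was 0.26 ± 0.07 (adjusted p = 0.0288), and it lost the call when Per1KO library 2, 3, 4 or 5 or SS library 1, 3 or 5 was left out, with adjusted p values of 0.0521 to 0.10. At 2pm Ece1 had 20.5, 19.3, 21.5, 19.9 and 18.3 FPKM in the Per1KO libraries, against 14.6, 14.5, 15.5, 15.4 and 16 FPKM in the SS libraries. These groups did not overlap, as for 6.36% of tested genes in that direction, and the log2 difference was 0.37 ± 0.07 (limma, adjusted p = 0.0010).

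Ednra, the contractile receptor, had 3.31, 2.98, 3.14, 2.67 and 2.73 FPKM in the Per1KO libraries at 2pm on high salt, against 1.92, 1.69, 1.79, 2.11 and 1.86 FPKM in the SS libraries. Every Per1KO library was above every SS library, as for 6.36% of tested genes. The means were 2.97 ± 0.27 FPKM in Per1KO and 1.87 ± 0.16 FPKM in SS, with a log2 difference of 0.46 ± 0.10 (limma, adjusted p = 0.00299). At 2am Ednra had 2.0, 2.94, 2.29, 2.66 and 2.13 FPKM in the Per1KO libraries and 1.81, 2.15, 1.35, 1.58 and 2.38 FPKM in the SS libraries. Those groups overlapped and the difference of 0.26 ± 0.10 missed the threshold (adjusted p = 0.126). It passed with limma voom on the recovered fragments, at 0.55 (adjusted p = 0.0208).

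Ednrb, the receptor of endothelium and collecting duct, had 11.8, 14.1, 11.5, 11.5 and 12.3 FPKM in the Per1KO libraries at 2am on high salt, against 12.1, 11, 10, 14.3 and 12.2 FPKM in the SS libraries. The groups overlapped, and the log2 difference was 0.04, with a 95% interval of -0.32 to 0.40 (adjusted p = 0.914). At 2pm it had 28.5, 11.4, 13.4, 15.3 and 19.8 FPKM in the Per1KO libraries, against 17.5, 18.3, 20.6, 18.7 and 13.6 FPKM in the SS libraries. The Per1KO libraries spread widely, with 1 above and 2 below all SS libraries, and the difference was -0.06, with a 95% interval of -0.42 to 0.30 (adjusted p = 0.825). Per1KO library 1, the highest for Ednrb, also had the highest sums of the group for 11 endothelium markers (307 FPKM, against 206 to 249 in the other 4) and for 5 podocyte markers (168 FPKM, against 58.2 to 135); their part in its Ednrb value was not tested.

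At 2pm on high salt the comparison could be made within each library series. In the early series Edn1 had 5.27 to 8.02 FPKM in 3 Per1KO libraries and 2.17 to 2.36 FPKM in 2 SS libraries. In the later series it had 4.68 and 4.78 FPKM in 2 Per1KO libraries and 2.28 to 3.57 FPKM in 3 SS libraries. Ednra ranged over 2.98 to 3.31 FPKM in Per1KO and 1.69 to 1.92 FPKM in SS in the early series, and over 2.67 to 2.73 FPKM in Per1KO and 1.79 to 2.11 FPKM in SS in the later one. Ece1 ranged over 19.3 to 21.5 FPKM in Per1KO and 14.5 to 14.6 FPKM in SS in the early series, and over 18.3 to 19.9 FPKM in Per1KO and 15.4 to 16 FPKM in SS in the later one. Since every Per1KO library was above every SS library for these 3 genes, their ranges could not overlap within either series, and this is no separate support. With series as a covariate the log2 differences were 0.87 for Edn1 (adjusted p = 0.00380), 0.45 for Ednra (adjusted p = 0.00538) and 0.37 for Ece1 (adjusted p = 0.00174). In the early series alone they were 1.21 (adjusted p = 0.0167), 0.56 (adjusted p = 0.0527) and 0.47 (adjusted p = 0.0321). In the later series alone none passed: the differences were 0.53 for Edn1, 0.34 for Ednra and 0.27 for Ece1, with adjusted p values of 0.307 to 0.410. No share of all genes passing is given for the fits of either series alone, so how readily they call any gene is not shown. Without SS libraries 4 and 5 all 3 passed, at 1.05 for Edn1 (adjusted p = 0.00148), 0.50 for Ednra (adjusted p = 0.00499) and 0.40 for Ece1 (adjusted p = 0.0018).

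Markers of several other cell states and types moved with the label on high salt. Among all genes tested there, 4.30% passed as higher and 8.95% in either direction at 2am. At 2pm these shares were 14.2% and 29.8%. At 2am the summed FPKM of 11 tubular injury markers was 2551 to 6636 in the Per1KO libraries and 426 to 2779 in the SS libraries, and 6 of the 10 tested passed as higher. At 2pm the sums were 3846 to 8288 in the Per1KO libraries and 1154 to 6316 in the SS libraries, with 6 of 10 higher. SS libraries 4 and 5 at 2pm, with injury sums of 6316 and 4729, had 3.16 and 3.57 FPKM of Edn1, the highest of their group. They lay below the lowest Per1KO library at 4.68 FPKM, as every SS library did. These libraries also stood apart by podocyte markers, as given above. Of 6 fibroblast markers 2 were higher at 2am and 5 at 2pm, with sums of 267 to 421 FPKM in the Per1KO libraries and 164 to 268 in the SS libraries at 2pm. Of 12 markers of mesangium, pericytes and smooth muscle, cells in which Ednra is known to act, none passed at 2am and 5 were higher at 2pm, led by Pdgfrb (log2 0.82). Their sums at 2pm were 169 to 251 FPKM in the Per1KO libraries and 109 to 156 FPKM in the SS libraries. Proximal tubule markers, of the most abundant cells of cortex, lay lower: their summed FPKM was 2188 to 3267 in the Per1KO libraries and 3162 to 4403 in the SS libraries at 2am, and 1169 to 2171 in the Per1KO libraries and 3335 to 4107 in the SS libraries at 2pm. Of the 8 none passed at 2am, and Lrp2 (log2 -0.85) and Slc7a13 (log2 -2.73) were lower at 2pm. Of 8 collecting duct principal cell markers none passed at 2am and 2 were lower at 2pm, with sums there of 322 to 528 FPKM in the Per1KO libraries and 365 to 667 FPKM in the SS libraries. Neither of the 2 passed with voom or without SS libraries 4 and 5. Macrophage and neutrophil markers were higher in 4 of 7 at 2am and 7 of 7 at 2pm, and of 11 endothelium markers 1 was lower at 2am and 2 were higher at 2pm. No marker of these 7 lists was at 0 throughout, although the injury keratin Krt20 had a median under 0.1 FPKM in both tables and the neutrophil gene S100a8 in that of normal salt. With all libraries, the counts passing for endothelium, proximal tubule and principal cells were near the shares of all genes. Without SS libraries 4 and 5 the counts at 2pm were 8 of 10 for injury, 3 of 6 for fibroblasts, 8 of 12 for mesangium, pericytes and smooth muscle, 5 of 7 for macrophages and neutrophils and 1 of 11 for endothelium, all higher, and 7 of 8 lower for proximal tubule. No share of all genes is given for that fit, so whether these counts exceed it cannot be judged. The part of these markers in the differences of the 4 genes was not tested. In whole cortex, fewer cells of a type and less RNA per cell cannot be told apart.

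**Figure D2:**
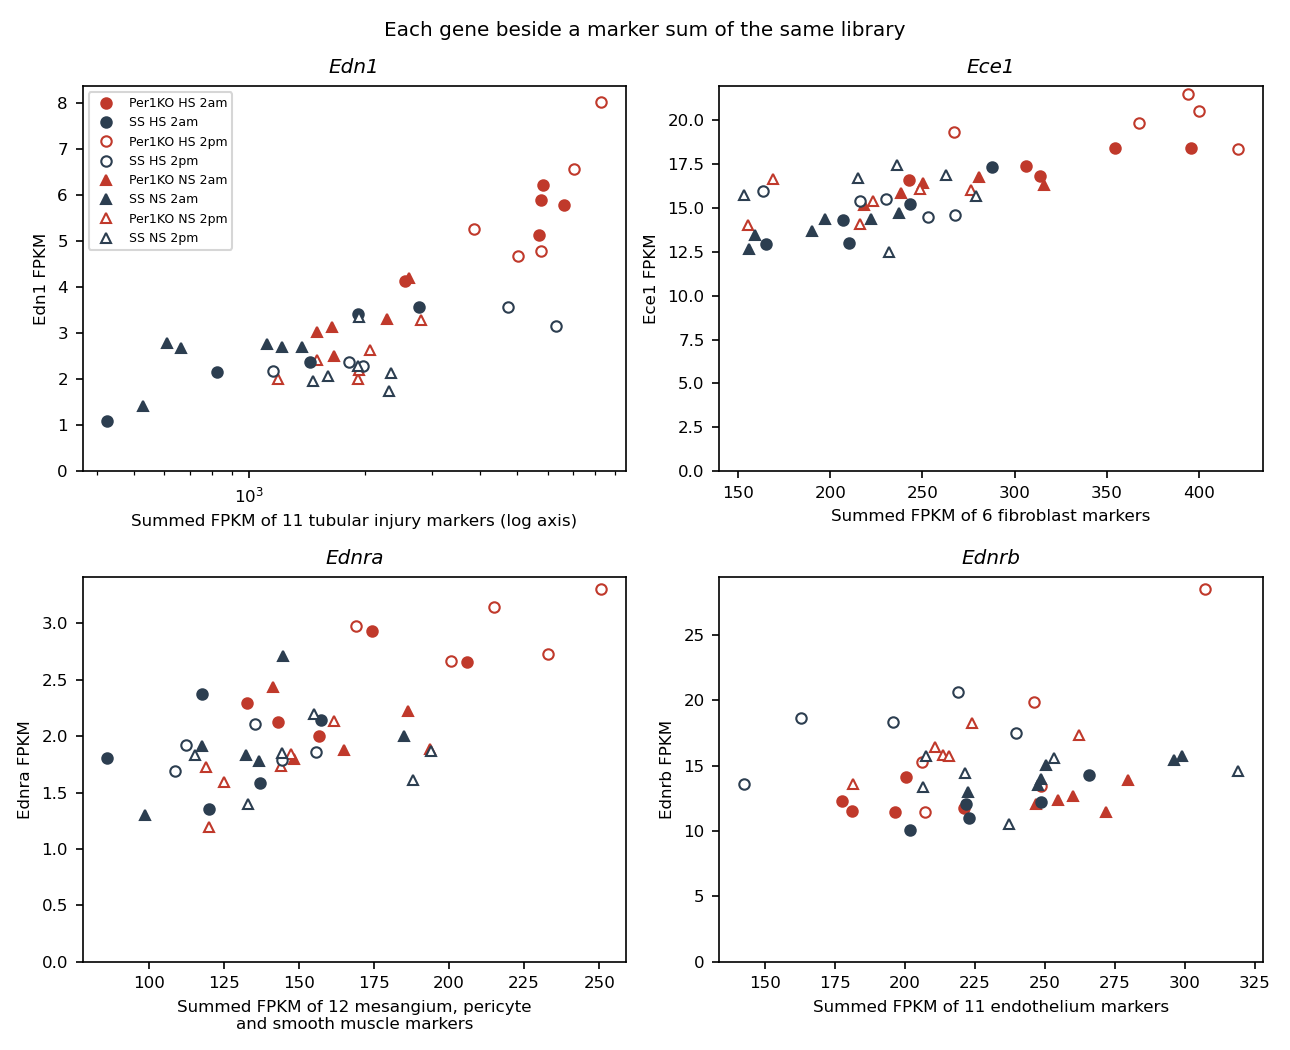
Each library's FPKM of Edn1, Ece1, Ednra and Ednrb (vertical axes) against a summed marker FPKM of the same library: 11 tubular injury markers on a log axis, 6 fibroblast markers, 12 markers of mesangium, pericytes and smooth muscle, and 11 endothelium markers. Red is Per1KO and dark SS, circles are high salt and triangles normal salt, and filled symbols are 2am and open ones 2pm. SS libraries 4 and 5 on high salt at 2pm lie at injury sums of 6316 and 4729 with 3.16 and 3.57 FPKM of Edn1.

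On normal salt, no member passed between the genotypes at either time. At 2am 4.18% of the 13436 genes tested passed in either direction, and at 2pm 0.372% did. Ece1 at 2am had 15.2, 16.8, 16.3, 15.9 and 16.4 FPKM in the Per1KO libraries, with SS libraries at 12.6, 14.0 (median) and 14.7 FPKM for the lowest, middle and highest. All 5 Per1KO libraries were above all 6 SS libraries, as was the case for 4.86% of genes. The log2 difference was 0.20 ± 0.07 (adjusted p = 0.0856), and Ece1 passed with voom, at 0.34 (adjusted p = 0.0303), and when only those 2 groups were fitted (adjusted p = 0.0122). Edn1 at 2am averaged 3.23 ± 0.62 FPKM in Per1KO (n = 5) and 2.51 ± 0.53 FPKM in SS (n = 6), a log2 difference of 0.28 ± 0.13 (adjusted p = 0.251). Of the Per1KO libraries 4 were above every SS library. Ednrb at 2am was 12.5 ± 0.91 FPKM in Per1KO and 14.4 ± 1.1 FPKM in SS (log2 -0.19 ± 0.09, adjusted p = 0.214), and 4 of the 5 Per1KO libraries were below every SS library. It passed when only those 2 groups were fitted (-0.19, adjusted p = 0.0468). Ednra at 2am was 2.04 ± 0.27 FPKM in Per1KO and 1.92 ± 0.46 FPKM in SS (log2 0.07, 95% interval -0.15 to 0.29, adjusted p = 0.772). Markers moved with the label here too. Of the tested markers 6 of 10 for tubular injury, 3 of 6 for macrophages and neutrophils and 1 of 6 for fibroblasts (Col1a1) were higher. The injury sums were 1499 to 2613 FPKM in the Per1KO libraries and 527 to 1368 FPKM in the SS libraries. Of 8 proximal tubule markers none passed, with sums of 2958 to 3507 FPKM in the Per1KO libraries and 3460 to 4639 FPKM in the SS libraries. The part of these markers in the Ece1 values was not tested.

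At 2pm on normal salt the genotypes lay close together. Edn1 was 2.42 ± 0.49 FPKM in Per1KO and 2.26 ± 0.57 FPKM in SS (n = 6 each), with a log2 difference of 0.08 and a 95% interval of -0.18 to 0.34. Ednra was 1.71 ± 0.31 FPKM in Per1KO and 1.79 ± 0.27 FPKM in SS (log2 -0.05, 95% interval -0.25 to 0.16). Ece1 was 15.4 ± 1.1 FPKM in Per1KO and 15.8 ± 1.8 FPKM in SS (log2 -0.03, 95% interval -0.17 to 0.10). Ednrb was 16.2 ± 1.6 FPKM in Per1KO and 14.0 ± 1.9 FPKM in SS, and its log2 difference of 0.20 ± 0.08 missed the threshold (adjusted p = 0.280).

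Whether the label difference itself differed between diets was tested in 1 fit of all 43 libraries. An offset on the fitted log2 scale that both genotypes of a table share cancels there. A shared scaling of FPKM cancels only in part at low levels, because 1 FPKM was added before taking logs. At 2pm the label difference was larger on high salt than on normal salt for 3 of the 4 members, where 11.0% of 14102 genes passed in that direction. The interaction was 0.80 ± 0.22 for Edn1 (adjusted p = 0.00984), 0.51 ± 0.14 for Ednra (adjusted p = 0.00922) and 0.40 ± 0.09 for Ece1 (adjusted p = 0.00249), on the log2 scale. It was -0.26 ± 0.18 for Ednrb (adjusted p = 0.326), and it passed without Per1KO high salt library 1, the highest for Ednrb (-0.44, adjusted p = 0.0380). Without SS high salt libraries 4 and 5 the first 3 were 0.97, 0.55 and 0.43, with adjusted p values of 0.00285, 0.00815 and 0.00199. At 2am no member passed and 0.00% of genes did: limma called 0 genes, with 821 at an unadjusted p under 0.05, and voom also called 0. The 2am interaction of Edn1 was 0.64 ± 0.23 (unadjusted p = 0.00826, adjusted p = 0.764).

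Diet itself coincides with the table, since each diet was processed and normalized apart, so its levels are set side by side with no test. In Per1KO at 2pm, Edn1 averaged 5.86 FPKM on high salt and 2.42 FPKM on normal salt, a ratio of 2.42. Ednra averaged 2.97 FPKM on high salt and 1.71 FPKM on normal salt there, a ratio of 1.74, and Ece1 19.9 FPKM on high salt and 15.4 FPKM on normal salt, a ratio of 1.29. For these 3 genes every high salt library was above every normal salt library, as for 11.1% of shared genes, and Ednrb overlapped. In Per1KO at 2am, Edn1 averaged 5.43 FPKM on high salt and 3.23 FPKM on normal salt, and 4 of the 5 high salt libraries were above all normal salt libraries. In SS, all 4 genes overlapped between the diets at both times, with Edn1 at 2.52 FPKM on high salt and 2.51 FPKM on normal salt at 2am, and at 2.71 FPKM on high salt and 2.26 FPKM on normal salt at 2pm. SS Ednrb averaged 11.9 FPKM on high salt and 14.4 FPKM on normal salt at 2am, and 17.7 FPKM on high salt and 14.0 FPKM on normal salt at 2pm.

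**Figure D3:**
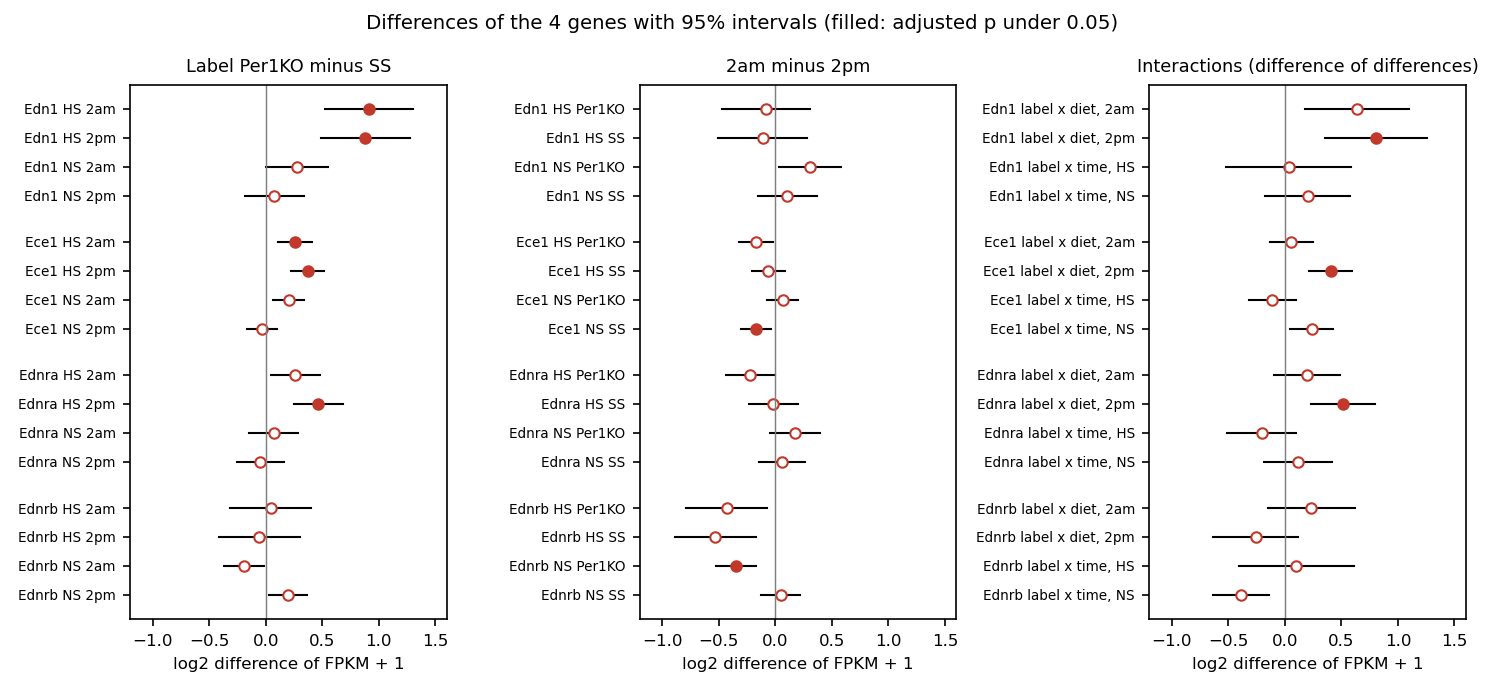
Log2 differences of the 4 genes with 95% intervals from limma on log2(FPKM + 1): label Per1KO minus SS within each diet and time, 2am minus 2pm within each diet and genotype, and the interactions. Filled points have an adjusted p under 0.05. Edn1 on high salt is at 0.91 and 0.88 in the left panel, and Edn1, Ece1 and Ednra have filled label by diet points at 2pm in the right panel.

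Between the times of day, Ednrb was the member with the lowest level at 2am relative to 2pm in 3 of the 4 pairs of groups. In Per1KO on normal salt it had 12.4, 12.7, 12.1, 11.5 and 13.9 FPKM at 2am, against 13.6, 16.1 (median) and 18.3 FPKM for the lowest, middle and highest library at 2pm. Of the 2am libraries 4 were below every 2pm library. Ednrb fell by 0.35 ± 0.09 on the log2 scale at 2am relative to 2pm (adjusted p = 0.0281), where 1.45% of genes passed as lower. This call was lost with voom (-0.30, adjusted p = 0.151) and in 7 of 11 fits that left out 1 library: Per1KO libraries 1, 2, 3 and 4 of 2am and 2, 3 and 6 of 2pm, with adjusted p values of 0.0512 to 0.0817. In SS on normal salt, Ednrb averaged 14.4 ± 1.1 FPKM at 2am and 14.0 ± 1.9 FPKM at 2pm (log2 0.05, 95% interval -0.12 to 0.21). The test of whether this time difference differed between the genotypes gave -0.39 ± 0.12 (adjusted p = 0.0664), and it passed only without SS library 3 of 2pm (-0.42, adjusted p = 0.0340) among the fits that left out 1 library. For this interaction 2.81% of genes passed in either direction. Per1KO library 1 of 2pm stood apart, with a summed FPKM of 5 perirenal fat markers of 277, against 13.2 to 22.4 in the other 5, and it held the lowest Ednrb of its group. Without it Ednrb differed by -0.39 between the times and passed. Of 11 endothelium markers 3 (Plvap, Flt1 and Tek) were higher at 2am in Per1KO, with sums of 247 to 280 FPKM at 2am and 181 to 262 FPKM at 2pm. The share of all genes that passed as higher there is not given, so this count cannot be set against it. The part of these markers in the Ednrb difference was not tested.

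On high salt, Ednrb averaged 12.2 ± 1.1 FPKM at 2am and 17.7 ± 6.8 FPKM at 2pm in Per1KO, a log2 difference of -0.43 ± 0.17 (adjusted p = 0.229), where 0.262% of genes passed in either direction. Without Per1KO library 1 of 2pm it was -0.25 (adjusted p = 0.435). In SS it averaged 11.9 ± 1.6 FPKM at 2am and 17.7 ± 2.6 FPKM at 2pm, a difference of -0.53 ± 0.17 (adjusted p = 0.0693), where 5.44% of genes passed. Of the SS libraries 4 at 2am were below every 2pm library. Neither result passed, and the genotype by time interaction was 0.10, with a 95% interval of -0.41 to 0.61, where 0.101% of genes passed. The time difference of Ednrb did not differ between diets beyond the threshold in Per1KO (-0.09 ± 0.19, adjusted p = 0.835), where 2.94% of genes passed, or in SS (-0.58 ± 0.18, adjusted p = 0.192), where 0.0709% did.

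Ece1 in SS on normal salt averaged 13.9 ± 0.76 FPKM at 2am and 15.8 ± 1.8 FPKM at 2pm. It fell by 0.17 ± 0.06 on the log2 scale at 2am relative to 2pm (adjusted p = 0.0497), at the edge of the threshold, where 12.0% of genes passed as lower. The call held in 2 of 12 fits that left out 1 library, without SS library 4 of 2am or 6 of 2pm, and the adjusted p reached 0.107 without library 3 of 2am. SS library 5 of 2pm stood apart, with summed FPKM of 33.3 for 5 podocyte markers, against 99.8 to 174 in the other 5, and without it the difference was -0.15 (adjusted p = 0.0858). Ece1 in Per1KO on normal salt averaged 16.1 ± 0.61 FPKM at 2am and 15.4 ± 1.1 FPKM at 2pm (log2 0.07 ± 0.07, adjusted p = 0.653). The genotype by time interaction of Ece1 there was 0.24 ± 0.09 (adjusted p = 0.135), and 0.30 (adjusted p = 0.0265) without SS library 6 of 2pm, the lowest of its group at 12.5 FPKM.

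Edn1 and Ednra did not pass between 2am and 2pm in any group. On normal salt Edn1 in Per1KO averaged 3.23 ± 0.62 FPKM at 2am and 2.42 ± 0.49 FPKM at 2pm (log2 0.31 ± 0.13, adjusted p = 0.218), and in SS 2.51 ± 0.53 FPKM at 2am and 2.26 ± 0.57 FPKM at 2pm (log2 0.11 ± 0.13, adjusted p = 0.558). On high salt the Edn1 time difference was -0.08 ± 0.19 in Per1KO and -0.11 ± 0.19 in SS. Ednra had its widest time difference in Per1KO on high salt, at 2.40 ± 0.39 FPKM at 2am and 2.97 ± 0.27 FPKM at 2pm (log2 -0.22 ± 0.10, adjusted p = 0.299), with 4 of 5 2am libraries below all 2pm libraries. No member passed a test of whether time of day acted differently in the genotypes on either diet, or differently in the diets in either genotype.

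Ordered by level, Edn1 on high salt ran from Per1KO 2pm through Per1KO 2am and SS 2pm to SS 2am, and only the middle gap, 2.72 FPKM, was larger than the SDs on either side. On normal salt Per1KO 2am was highest, 0.72 FPKM above SS 2am, and the other 3 groups lay within an SD of their neighbours. Ece1 on high salt had the same order as Edn1, and its gap beyond the larger SD lay both between the Per1KO times, 2.38 FPKM, and between Per1KO 2am and SS 2pm, 2.35 FPKM. Ednra on high salt had this order too, and its normal salt groups lay within an SD of their neighbours. Ece1 on normal salt was lowest in SS 2am, 1.5 FPKM under Per1KO 2pm, a gap larger than the larger SD, and Ednrb on normal salt was highest in Per1KO 2pm, 1.76 FPKM above SS 2am, where the larger SD was 1.6 FPKM. Ednrb on high salt was ordered by time of day, with both 2pm groups at 17.7 FPKM and the 2am groups at 12.2 FPKM in Per1KO and 11.9 FPKM in SS. The Per1KO 2pm mean includes library 1 at 28.5 FPKM, where the other 4 had 11.4 to 19.8 FPKM. None of its gaps was larger than the larger SD, which was 6.8 FPKM in Per1KO at 2pm.

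The balance of the receptors was described by the ratio of ETB to ETA mRNA, Ednrb over Ednra FPKM in the same library. On high salt it was 5.16 ± 0.66 in Per1KO and 6.67 ± 1.65 in SS at 2am, and 5.95 ± 2.01 in Per1KO and 9.53 ± 1.68 in SS at 2pm (SD, n = 5 each). At 2pm the Per1KO libraries ranged over 3.84 to 8.62 and the SS libraries over 7.30 to 11.5, so the groups overlapped. On normal salt it was 6.17 ± 0.57 in Per1KO and 7.77 ± 1.39 in SS at 2am, and 9.65 ± 1.06 in Per1KO and 7.88 ± 0.80 in SS at 2pm. Every library in both tables held more Ednrb than Ednra, by at least 3.84 times.

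Of 8 other genes, listed as those of endothelin ligands or of proteases, 2 had enough signal to be tested. Edn2, the gene of a second endothelin, and the protease genes Ecel1 and Phex had medians under 0.1 FPKM in both tables. Edn3, the gene of the ETB-preferring endothelin-3, averaged 0.73 ± 0.28 FPKM in Per1KO and 1.10 ± 0.64 FPKM in SS on high salt at 2am, and 1.31 ± 0.80 FPKM in Per1KO and 2.29 ± 2.77 FPKM in SS at 2pm. Mme, which encodes neprilysin, a brush border protease that degrades endothelins, averaged 72.7 ± 28.1 FPKM in Per1KO and 177 ± 81 FPKM in SS on high salt at 2pm. It was lower there by 1.18 ± 0.41 on the log2 scale (limma, adjusted p = 0.0360), and it did not pass in the other 3 label comparisons. The call was lost without SS libraries 4 and 5 (-0.74, adjusted p = 0.212), with voom (-0.95, adjusted p = 0.0700), with no filter (adjusted p = 0.0633), with only the groups compared (adjusted p = 0.0985), with series as a covariate (-1.02, adjusted p = 0.0553) and in the early (-0.66, adjusted p = 0.528) and later (-1.37, adjusted p = 0.190) series alone.

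Of 24 tested genes of G protein and calcium signalling downstream of the receptors, 6 were higher and 1 lower in Per1KO on high salt at 2pm, with a list median of 0.09 beside 0.003 for all genes, and 29.8% of all genes passed there in either direction. Without SS libraries 4 and 5 the counts were 10 higher and 3 lower, with no share of all genes given for that fit. With voom 15 were higher and none lower, beside 4868 higher and 799 lower among all genes, where the FPKM fit had 2112 and 2333. Arrb2, the arrestin that uncouples receptors, was higher by 0.74 ± 0.12, Itpr3, a calcium release channel, by 0.67 ± 0.11, and Gnai2, an inhibitory G protein subunit, by 0.43 ± 0.08. Gna12 was lower (-0.38 ± 0.09). At 2am 2 of the 24 were higher and 1 lower, where 8.95% of all genes passed, led by Itpr3 (0.76 ± 0.11). On normal salt 2 were higher and 1 lower at 2am, and none passed at 2pm. Of 9 tested genes of the nitric oxide and cGMP pathway, which ETB can engage, 2 were higher and 1 lower on high salt at 2pm: the soluble guanylate cyclase subunits Gucy1a1 (0.99 ± 0.20) and Gucy1b1 (0.76 ± 0.24), and Ddah1 (-0.48 ± 0.14), which breaks down an inhibitor of nitric oxide synthase. With voom 4 of the 9 were higher and none lower. None of the 9 passed on high salt at 2am.

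Of 15 tested genes known as regulators of Edn1 transcription, 4 were higher and none lower in Per1KO on high salt at 2pm, where 14.2% of all genes were higher and 29.8% passed in either direction. These were Tgfb1 (0.89 ± 0.12, adjusted p = 7.8e-05), Nfkb1 (0.44 ± 0.09), Klf2 (0.82 ± 0.18) and Jun (0.48 ± 0.16). Without SS libraries 4 and 5 the counts were 8 higher and 2 lower, and with voom 8 and 0. With voom more of all genes were also higher, as given above. No share of all genes is given for the fit without SS libraries 4 and 5, so its counts cannot be set against one. Klf2 is known to lower Edn1 in endothelium and the other 3 to raise it. Tgfb1 was the gene of this list that also passed at 2am on high salt (0.60 ± 0.12) and at 2am on normal salt (0.58 ± 0.13). It averaged 26.6 ± 2.9 FPKM in Per1KO and 14.0 ± 2.0 FPKM in SS on high salt at 2pm. The list median was 0.22 on high salt at 2pm, 0.13 at 2am there, 0.03 on normal salt at 2am and 0.07 at 2pm.

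The genes whose levels ran most like a member were ranked among 11850 named genes by the lower of the Pearson r over 23 normal salt and 20 high salt libraries, as a description, since libraries share groups and depth. For Edn1 they were Tsc22d1 (r = 0.83 on high salt and 0.74 on normal salt), Lrg1, Msc, Stat3 and Rtn4rl2. For Ednra they were Dennd2a (0.85 and 0.80), Sfrp1, Atp10a, Fgl2 and Lrrc8c. For Ece1 they were Col1a1 (0.85 and 0.78), Zbtb47, Dopey2, Capn5 and Rrp1b. For Ednrb they were Kitlg (0.69 and 0.61), Clec1a, Tlr3, Zfp717 and Atp8b1. Of these 5 genes, none remained for Edn1, Ednra or Ece1 once group means were removed, and Clec1a and Tlr3 remained for Ednrb. Ranked by Spearman rho instead, 1 of the 5 remained for Edn1 (Tsc22d1), 1 for Ednrb (Zfp717), 3 for Ednra and 3 for Ece1. Among the members, Edn1 and Ece1 had r = 0.88 over the high salt libraries and 0.65 after removing group means, and r = 0.00 over the normal salt libraries. Ednra and Ednrb had r = 0.22 on high salt and 0.27 on normal salt, and 0.18 and 0.74 there after removing group means.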

How the data were processed

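Poly(A)-selected RNA of kidney cortex was sequenced in 43 libraries. The authors deposited FPKM per gene and library, 1 table per diet. The tools named in the submitters' processing notes, with no role given, are featureCounts 1.5.0-p3, HISAT2 2.0.5, fastp and StringTie 1.3.3b. The labels' protocols describe directional and non-directional libraries without saying which were used, so antisense reads cannot be told apart. Samples were grouped by their titles, and 0 columns lacked a sample. A small extract sheet whose headings disagreed with the full table was not used. FPKM times gene length came out whole, within 0.01 of a fragment, for 100% of values, which gave the depths and fragments.

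Values were analysed as log2(FPKM + 1) with limma 3.58.1 in R 4.3.3: 1 mean per group, empirical Bayes with an intensity trend, two-sided tests, Benjamini-Hochberg adjustment over 13436 (normal salt), 14899 (high salt) or 14102 (shared) genes that reached 1 FPKM in 5 or more libraries. In all 14 contrasts were read. The script was tested on simulated data. Promoters and motif shares used RefSeq on GRCr8. Named genes were the 4 members in every contrast, up to 4 passing members per pathway list with the smallest p, and 5 genes most like each member. The members, lists and tests were chosen with earlier results of these data known. Intervals cover the spread between libraries, and fragment numbers limit precision for Edn1 most. Alternatives were a pseudocount of 0.1, no filter, median-ratio rescaling, voom on recovered fragments, a replicate block, only the groups compared, each library left out, library series, 2 doubted libraries left out and separate fits per table.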

Additional observations from a re-analysis of the deposited data

Results flagged for a closer look

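Edn1 in SS on normal salt at 2am had 1.42 FPKM in library 5, far below the other 5 libraries. In SS on normal salt at 2pm, library 6 had the highest Edn1, 3.36 FPKM, and the lowest Ece1, 12.5 FPKM, each far from the rest of its group. These are 3 of 32 combinations of gene and group checked. Chance gives such a gap in about 1 in 20 independent sets, but the combinations share libraries, as library 6 does here.

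The label difference at 2pm differed between the diets by a test of the difference itself for Edn1 (log2 0.80), Ednra (0.51) and Ece1 (0.40), larger on high salt in each.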

How the results depend on the processing

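The 56 differences of the 4 genes were recomputed under 1236 alternative values, of which 1168 kept their direction and their side of the threshold, 33 no longer passed, 8 newly passed and 27 turned sign. None of the 27 was of the 10 differences that passed in the report. All 32 group means moved by less than 1 SD under median-ratio rescaling. Edn1 on high salt at both times, Ednra and Ece1 on high salt at 2pm and the label by diet interactions of these 3 genes at 2pm passed in every fit that left out 1 library. Depth limits Edn1 most, with 32 to 266 fragments per library, and where a value moved the cause was not tested.

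With voom on the recovered fragments, the label difference of Ece1 on normal salt at 2am passed (0.34), as did that of Ednra on high salt at 2am (0.55). By time of day voom gave -0.30 for Ednrb in Per1KO on normal salt and -0.24 for Ece1 in SS on normal salt, both past the threshold in the report and not here, -0.0093 for Ednrb in SS on normal salt and 0.0010 for Ednra in SS on high salt. Ednrb by label on high salt at 2pm turned to 0.17. Voom took library size as the total fragments, whereas the size behind the FPKM was 1.02 to 1.16 times the total in Per1KO and 0.882 to 0.972 times it in SS on high salt at 2pm. The median of all genes with voom was 0.25 there, 0.16 by label on high salt at 2am, 0.11 by label on normal salt at 2am, 0.23 for label by diet at 2pm, 0.12 for label by time on normal salt and -0.11 for time by diet in Per1KO. Relative to it, Edn1, Ednra, Ece1 and Ednrb by label on high salt at 2pm were at 1.12, 0.67, 0.38 and -0.07. With voom 1791 genes were higher and 258 lower by label on high salt at 2am, against 641 and 692 with limma on FPKM, and 1384 and 74 by label on normal salt at 2am, against 428 and 133. For label by diet at 2pm these were 3450 and 491, against 1548 and 1554.

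With only the groups compared in the fit, Ednrb (-0.19) and Ece1 (0.20) by label on normal salt at 2am passed, as did Ece1 for time by diet in Per1KO (-0.24), and Ece1 by time in SS on normal salt did not (-0.17). The last was also lost with a pseudocount of 0.1 (-0.18) and with no filter (-0.17). Only the groups compared called 2592 genes by label on high salt at 2pm, against 4445, and 2333 at 2am, against 1333. By label on high salt at 2pm, the later series alone gave 0.53 for Edn1, 0.34 for Ednra, 0.27 for Ece1 and 0.0064 for Ednrb, and the early series alone 0.56 for Ednra. Without SS libraries 4 and 5 of high salt 2pm, Edn1 and Ednra by time in SS were 0.053 and 0.016, and label by time for Edn1 on high salt was -0.13.

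Fits that left out 1 library gave these ranges where a call or sign changed. By label they were -0.092 to 0.011 for Ednra on normal salt at 2pm, -0.013 to 0.10 for Ednrb and 0.22 to 0.32 for Ece1 on high salt at 2am, and -0.24 to 0.070 for Ednrb on high salt at 2pm. By time on normal salt they were -0.39 to -0.31 for Ednrb in Per1KO, and in SS -0.014 to 0.12 for Ednra, -0.029 to 0.079 for Ednrb and -0.23 to -0.14 for Ece1. By time on high salt they were -0.14 to 0.023 for Edn1 in Per1KO, and in SS -0.22 to 0.063 for Edn1 and -0.084 to 0.046 for Ednra. For label by time they were -0.44 to -0.32 for Ednrb and 0.21 to 0.30 for Ece1 on normal salt, and -0.14 to 0.14 for Edn1 and -0.029 to 0.28 for Ednrb on high salt. Label by diet at 2pm for Ednrb ran from -0.44 to -0.13, and time by diet for Ednrb in Per1KO from -0.22 to 0.096.

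With the replicate number as a block, all 56 differences kept their call, for example Edn1 by label on high salt at 2pm at 0.88 (adjusted p = 0.00141). The numbers do not pair the libraries: the mean r between residuals of libraries with the same number was 0.02 in the normal salt table and 0.03 in that of high salt. The block left 5 genes called by time in Per1KO on high salt, against 39, and 657 for label by time on normal salt, against 378.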
